A study of Mus musculus with 6 samples.

Results

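The 9 genes described here encode the proteases and the protein disaggregase that keep mitochondrial proteins in order, Lonp1, Clpp, Clpx, Clpb, Afg3l2, Spg7, Yme1l1, Oma1 and Htra2. They were chosen by name, through the mouse Ensembl identifier of each, and all 9 were found among the 39177 identifiers of the count files. RNA of crude heart mitochondria was sequenced from 3 Polrmt knockout mice and 3 control mice of the strain C57BL/6N, all 3 to 4 weeks old. The knockout mice (titled L/L, cre; genotype Polrmt -/-) carried Polrmt alleles with loxP sites around exon 3 and a cre transgene under the promoter that the labels name muscle creatinine kinase. The control mice (titled L/L; genotype given as Polrmt +/+) had no cre, and by their title they carry the loxP sites too. Nuclear transcripts in such a preparation are those that came down with the mitochondria, so a level here is not that of the whole cell. Polrmt encodes the RNA polymerase of mitochondria, and cre under a muscle promoter leaves the gene intact in heart cells other than muscle.

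Mitochondria hold proteases in each compartment. In the matrix, LONP1 and the complex of CLPP with its unfoldase CLPX degrade misfolded or surplus proteins. In the inner membrane, the m-AAA protease of AFG3L2 and SPG7 faces the matrix, while YME1L1 and the stress-activated OMA1 face the intermembrane space and both cleave OPA1. HTRA2 is a serine protease of the intermembrane space, and CLPB is a disaggregase there that degrades nothing itself but keeps proteins soluble. Heart muscle is dense in mitochondria, and loss of several of these proteases is known to damage it.

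Gene-assigned counts per library were between 1062030 and 1227997 in knockouts and between 2867067 and 3234729 in controls, and mtDNA transcripts took between 21.1% and 25.8% of them in knockouts and between 79.5% and 83.5% in controls. The values below are therefore counts per 1000000 nuclear counts (CPM), scaled by TMM, which sets the bulk of nuclear transcripts to no change. Of the nuclear counts, 5 loci that collect ribosomal RNA reads held between 80.6% and 84.9%, and 1 count equals between 1.03 and 2.20 CPM. Polrmt itself had 2, 5 and 1 counts in knockouts and 3, 2 and 1 counts in controls, or 0.897 times as much after scaling (95% Poisson interval 0.273 to 3.14). Counts per gene do not resolve exon 3, so they check neither the deletion nor the labels. Within knockouts, nuclear counts of replicate 3 differed from those of replicates 1 and 2 with a chi-square per degree of freedom of 6.26 and 3.76, against 1.77 between replicates 1 and 2. Control pairs gave between 1.3 and 1.88. Without knockout 3 the fitted log2 change was 2.40 for Lonp1 and 0.86 for Afg3l2, and both stayed called (edgeR adjusted p = 2.76e-16 and 0.0155). Markers of heart muscle were abundant in every library, with a summed level between 10055 and 10761 CPM in knockouts and between 10340 and 12506 CPM in controls (6 markers, 3 of them called lower in knockouts by the test described below). Most of that sum was Myh6, with a mean of 7592 CPM in knockouts and 7584 CPM in controls. The lowered markers were Ryr2 (0.429-fold), Actc1 (0.649-fold) and Tnnt2 (0.754-fold), while Myh6, Tnni3 and Myl2 were not called. The groups did not overlap in the summed levels of 5 smooth muscle and pericyte markers (184 to 274 CPM in knockouts, against 310.3 to 365 CPM in controls), 6 endothelial markers (272 to 315 CPM in knockouts, against 349 to 422 CPM in controls) and 6 macrophage markers (24.5 to 40.3 CPM in knockouts, against 56.0 to 94.6 CPM in controls). The 6 fibroblast markers summed to between 1540.1 and 1774 CPM in knockouts and between 1768 and 1918 CPM in controls, and of 4 adipocyte markers Adipoq, Plin1 and Lep were at 0 in all libraries. By the same test Pdgfra and Dpt of fibroblasts, Acta2 and Pdgfrb of smooth muscle and pericytes, and Csf1r of macrophages were called lower. No endothelial marker was called, and no marker of any type was called higher. The part of these markers in the results below was not tested. In such a bulk preparation fewer cells of a type cannot be told apart from less RNA per cell. Nor can either be told apart from less of that RNA coming down with the mitochondria.

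Among the 9 members, 2 were called higher in knockouts, 0 were called lower, 2 were tested and not called, and 5 did not pass the low-count filter and were not tested (edgeR's quasi-likelihood test, Benjamini-Hochberg adjusted p under 0.05). Over all 2369 tested genes, 8.57% were called higher and 7.81% lower. Lonp1 rose 5.0-fold and Afg3l2 1.69-fold. The groups did not overlap, with every knockout above every control, in 5 members (Lonp1, Clpp, Clpb, Afg3l2 and Htra2), and they overlapped in the other 4. That holds for 16.7% of all tested genes (33.3% in either direction). Clpp, Clpb and Htra2 were not tested, and among 5815 nuclear genes below the filter with at least 10 counts in all it holds for 8.15%. A member with few counts in controls could pass the filter only through the knockouts, so the tested members do not stand for all 9.

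**Figure D1:**
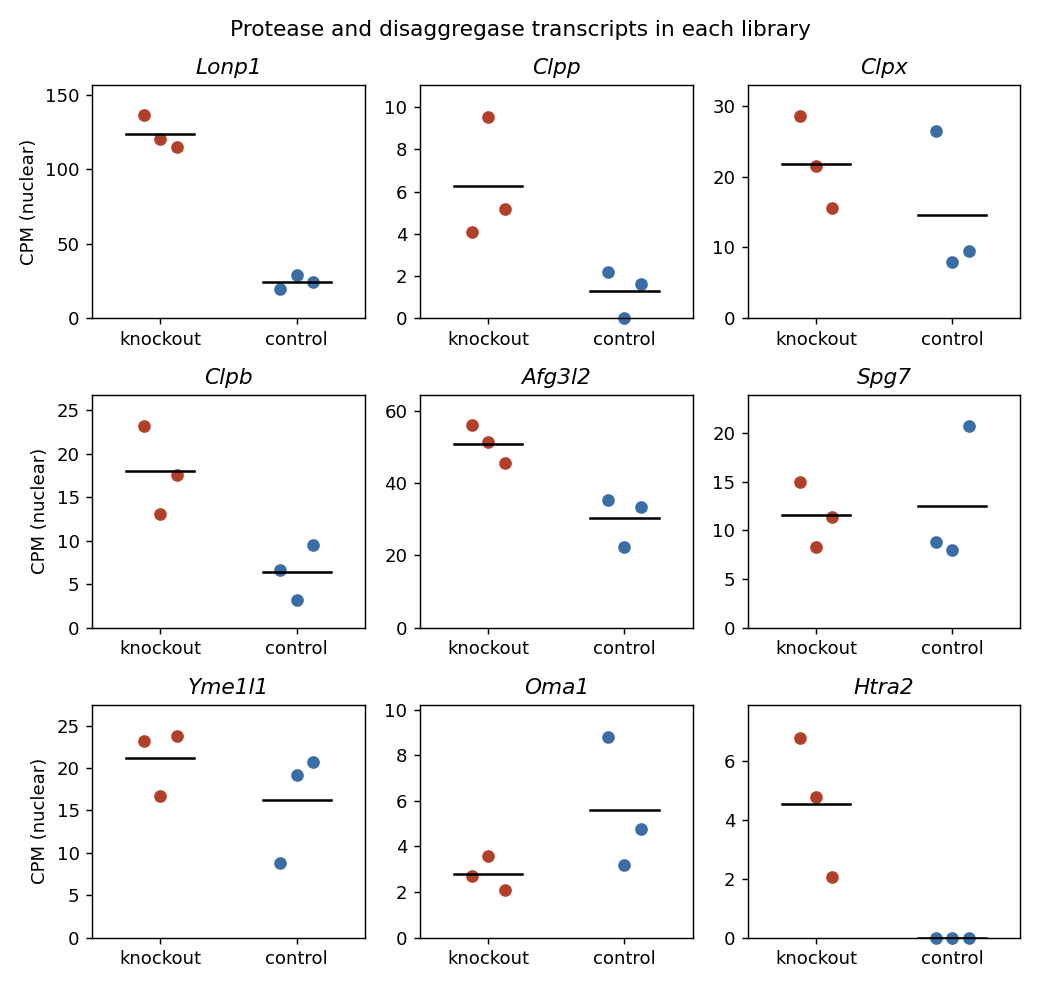
Level of each of the 9 members in every library, in CPM of nuclear counts on a linear axis from 0, with knockouts (n = 3) left of controls (n = 3) and a line at each mean. The 3 knockouts lie above the 3 controls for Lonp1, Clpp, Clpb, Afg3l2 and Htra2, and the groups overlap for Clpx, Spg7, Yme1l1 and Oma1.

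Lonp1 encodes the ATP-driven protease of the matrix, which also binds mtDNA and degrades its packaging factor TFAM. It had 100, 101 and 111 counts in knockouts and 9, 18 and 15 counts in controls. In CPM these were 136, 120.4 and 115 in knockouts, against 19.8, 28.8 and 23.9 in controls. The lowest knockout thus lay far above the highest control. The means were 124 ± 11.1 CPM in knockouts and 24.1 ± 4.50 CPM in controls (SD, n = 3 each), which is 2.32 ± 0.21 on the log2 scale (SE; edgeR adjusted p = 1.59e-15). The call was kept under all 14 alternative settings, with a log2 fold change between 2.22 and 2.46. No setting used total counts without TMM, so these settings do not test leaving mtDNA out of the library size. The authors' deposited table gives a log2 fold change of 2.34 for this gene, with a false discovery rate of 2.31e-24. The gene (ENSMUSG00000041168) lies on the minus strand of chromosome 17 (56614297 to 56626887, GRCm38), and its exons overlap those of no other annotated gene.

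The 250 bases upstream of the RefSeq start (GRCm38.p6, in gene direction) are shown for the 3 matrix proteases, so that the window of Lonp1 (chr17:56626904-56627153, minus strand) can be set beside those of Clpp (chr17:56990014-56990263, plus strand) and Clpx (chr9:65294010-65294259, plus strand). Capitals mark matches to the motifs searched on both strands.
Lonp1: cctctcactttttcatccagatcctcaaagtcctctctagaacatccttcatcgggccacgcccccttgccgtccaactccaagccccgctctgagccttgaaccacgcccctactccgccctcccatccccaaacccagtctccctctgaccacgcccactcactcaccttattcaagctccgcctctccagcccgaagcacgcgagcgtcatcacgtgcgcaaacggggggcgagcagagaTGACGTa
Clpp: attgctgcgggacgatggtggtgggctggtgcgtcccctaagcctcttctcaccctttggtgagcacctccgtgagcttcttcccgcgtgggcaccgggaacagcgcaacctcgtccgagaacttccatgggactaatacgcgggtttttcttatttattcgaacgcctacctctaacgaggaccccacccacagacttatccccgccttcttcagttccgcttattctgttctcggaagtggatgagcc
Clpx: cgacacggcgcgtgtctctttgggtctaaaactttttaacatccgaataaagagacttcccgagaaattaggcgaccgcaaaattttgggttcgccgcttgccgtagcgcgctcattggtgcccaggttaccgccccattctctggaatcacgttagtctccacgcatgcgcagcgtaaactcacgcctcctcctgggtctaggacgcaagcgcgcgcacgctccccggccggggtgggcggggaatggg
The motifs were TGATGNAA, a core of the element bound by the stress factor ATF4, the core bound by NRF1 (GCGCA and GCGC with any base between them), and TGACGT, a cyclic AMP response element core that was added after these sequences had been seen. Of the 9 members, 7 have an entry in the RefSeq promoter table (Afg3l2 and Htra2 have none). The TGACGT core was in the window of Lonp1, from -7 to -2, and in 6.47% of all 32851 promoter windows. The ATF4 letters were in 0 of the 7 windows and in 3.45% of all. The NRF1 letters were in those of Spg7 (-66 to -57 from the start) and Oma1 (-23 to -14) and in 3.74% of all, though 250 bases of the Spg7 window and 34 of the Oma1 window lie in annotated exons. These are matches of letters, not binding sites.

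Clpp and Clpx form the other ATP-driven protease of the matrix, CLPP as the proteolytic barrel and CLPX as the ring that unfolds and feeds it. Clpp (chromosome 17, 56990305 to 56996188) had 3, 8 and 5 counts in knockouts and 1, 0 and 1 counts in controls. The knockouts lay above the controls, but the scaled ratio of 5.38 could lie anywhere between 1.27 and 48.2 (95% Poisson interval). It was 1.76 on the log2 scale without control 2 and 2.99 without control 1, against 2.43 with all libraries. Clpx (chromosome 9, 65294260 to 65330658) had 28.6, 21.5 and 15.5 CPM in knockouts, against 26.4, 7.99 and 9.55 CPM in controls. Control 1 lay among the knockouts, and the fitted difference of 0.65 ± 0.38 (log2, SE) did not pass the test (95% interval -0.09 to 1.4, edgeR adjusted p = 0.257). Without control 1 it was 1.27 and still did not pass (edgeR adjusted p = 0.0649). Pooled over libraries, Clpx had 3.38 counts for each count of Clpp in knockouts and 11.5 in controls, a ratio that rests on 2 control counts of Clpp. A processed pseudogene of Clpx, Gm37981, matches it over 312 bases at 97.4% identity and has no entry in the count files. How reads alike in both were assigned is not known here.

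Clpb (chromosome 7, 101663633 to 101795506) encodes the disaggregase of the intermembrane space, an AAA+ protein related to bacterial ClpB and yeast Hsp104. It had 17, 11 and 17 counts in knockouts and 3, 2 and 6 counts in controls. In CPM these were 23.2, 13.1 and 17.6 in knockouts, against 6.60, 3.2 and 9.55 in controls, so that the lowest knockout lay above the highest control. Scaled, knockouts held 2.75 times as much (95% Poisson interval 1.4 to 5.90). Clpb fell short of the low-count filter and was not tested with all libraries. It was tested under 7 of 14 alternatives and called higher in 4 of them, for instance with a minimum count of 5, a setting chosen after the data were seen (log2 fold change 1.45, edgeR adjusted p = 0.0248). In those 4 settings Clpb passed the low-count filter only through its knockout counts, so these calls lean towards higher. It was not called with no low-count filter (edgeR adjusted p = 0.0771), without control 1 (0.0598) or without control 2 (0.186). The authors' deposited table gives 1.46 on the log2 scale, with a false discovery rate of 0.0247. Pseudogenes Gm8049 and Gm18986 match Clpb at 90.2% and 90.9% identity and have no entry in the count files.

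Afg3l2 and Spg7 encode the subunits of the m-AAA protease, which degrades unassembled inner membrane proteins and matures the ribosomal protein MRPL32. Afg3l2 (chromosome 18, 67404764 to 67449172) had 41, 43 and 44 counts in knockouts and 16, 14 and 21 counts in controls. In CPM it had 55.9, 51.2 and 45.5 in knockouts, against 35.2, 22.4 and 33.4 in controls, with no overlap. The means were 50.9 ± 5.18 CPM in knockouts and 30.3 ± 6.94 CPM in controls (SD, n = 3 each), a difference of 0.75 ± 0.24 in log2 units (SE; edgeR adjusted p = 0.0225). That call was lost in 6 of 14 alternatives: without control 2 (log2 fold change 0.56, edgeR adjusted p = 0.208), without knockout 1 (0.0686), with total library sizes (0.0521), with no scaling (0.0973), with no low-count filter (0.0761) and with DESeq2 (0.267). The authors' deposited table gives a log2 fold change of 0.79, with a false discovery rate of 0.0297.

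Spg7 (chromosome 8, 123062942 to 123097760), whose human counterpart is mutated in a hereditary spastic paraplegia, had 15, 8.34 and 11.4 CPM in knockouts, against 8.80, 7.99 and 20.7 CPM in controls. Control 3 was the highest library of all, and the groups overlapped. With 29 counts in knockouts and 22 in controls it was not tested, and the scaled ratio was 0.887 (95% Poisson interval 0.492 to 1.62). The log2 ratio of -0.17 became 0.46 without control 3, so these counts give it no direction. Counts of Afg3l2 were 3.73, 6.14 and 4.00 times those of Spg7 in knockouts and 4.00, 2.80 and 1.62 times in controls, with overlap between the groups.

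Yme1l1 and Oma1 are the proteases that cleave the inner membrane fusion factor OPA1. Yme1l1 (chromosome 2, 23156369 to 23199260), the i-AAA protease, had 23.2, 16.7 and 23.8 CPM in knockouts, against 8.80, 19.2 and 20.7 CPM in controls. The groups overlapped, and the fitted difference of 0.33 ± 0.35 (log2, SE) did not pass the test (95% interval -0.35 to 1.01, edgeR adjusted p = 0.587). Oma1 (chromosome 4, 103313812 to 103371868) had 2, 3 and 2 counts in knockouts and 4, 2 and 3 counts in controls. Its scaled ratio was 0.523 (95% Poisson interval 0.166 to 1.58), and the groups overlapped. For both genes the interval holds changes in either direction.

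Htra2 (chromosome 6, 83051266 to 83055273, minus strand) encodes the serine protease of the intermembrane space that also binds inhibitors of apoptosis when released. It had 5, 4 and 2 counts in knockouts and 0 in each control. Set against 3 counts over the control group, its 11 knockout counts were 2.47-fold higher after scaling, a value that takes the knockout counts as exact. With the counting error of the knockouts too, the 95% Poisson lower limit of the ratio was 1.69. Its exons share 753 bases with Aup1 and 535 with Loxl3, both on the opposite strand. The sources used here do not say whether counting used strand, and without strand reads of these genes cannot be told apart. Aup1 had 4, 3 and 8 counts in knockouts and 4, 2 and 4 in controls, and Loxl3 had at most 2 in any library. The other 8 members have no exon overlap with another annotated gene.

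**Figure D2:**
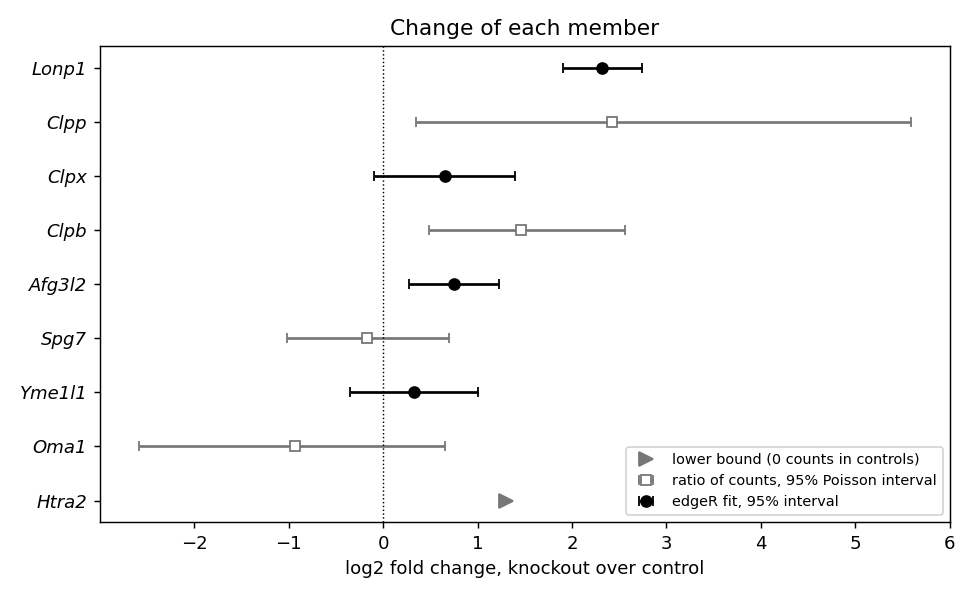
Log2 fold change of each member, knockout over control, with 0 (no change) dotted. Filled circles are edgeR fits with a 95% interval, open squares are scaled ratios of summed counts with a 95% Poisson interval, and the triangle is Htra2 set against 3 control counts, since it had 0 counts in controls. Lonp1 stands at 2.32, Afg3l2 at 0.75, and the intervals of Clpx, Spg7, Yme1l1 and Oma1 include 0.

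Levels of different genes were compared per kilobase of the principal transcript (GENCODE M21). In controls, Afg3l2 (9.80 ± 2.24 CPM per kb) and Lonp1 (8.18 ± 1.52 CPM per kb) were the highest of the 9, followed by Clpx at 5.08 ± 3.54 and Spg7 at 4.31 ± 2.46 CPM per kb (SD, n = 3). No member in the control order stood clear of its next neighbour, since the libraries of each neighbouring pair overlapped. In knockouts Lonp1 was first with 42.0 ± 3.77 CPM per kb, and its lowest library (38.9) lay above the highest of Afg3l2 (18.1). Afg3l2 followed with 16.4 ± 1.67 CPM per kb, also clear of Clpx at 7.58 ± 2.27 (SD, n = 3). From Clpx downwards, through Clpp, Yme1l1, Spg7, Clpb, Htra2 and Oma1, neighbours overlapped in knockouts too. The place of Afg3l2 depends on the length used: over all annotated exons merged, its mean level in knockouts was 5.15 CPM per kb, below the 6.26 of Clpx, while Lonp1 stayed first at 28.3. In controls the same length put Lonp1 first at 5.52, Clpx next at 4.19 and Afg3l2 after them at 3.07 CPM per kb.

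**Figure D3:**
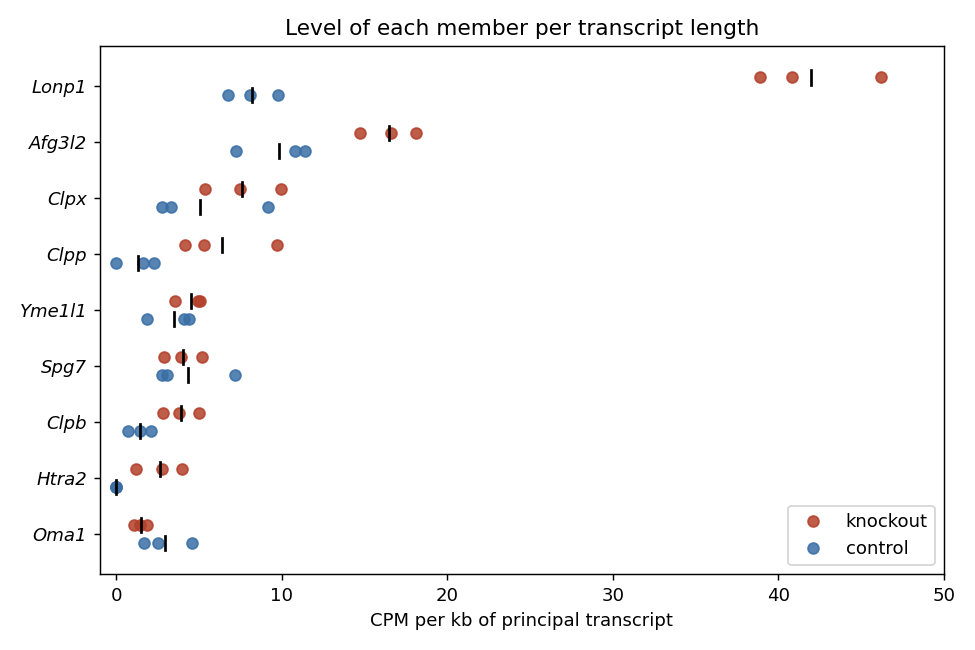
Level of each member per kilobase of its principal transcript, in CPM per kb, with knockout libraries (n = 3) drawn above control libraries (n = 3) and a bar at each mean. Knockout libraries of Lonp1 lie between 38.9 and 46.2 CPM per kb, apart from all other values.

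Lonp1 took a larger share of the set in knockouts. Its counts made up 47.6% ± 1.28 of the counts of all 9 members in knockouts and 22.4% ± 7.55 in controls (SD, n = 3 each), a share that needs no scaling between libraries. The log2 ratio of Lonp1 to the other 8 members was -0.14 ± 0.07 in knockouts and -1.84 ± 0.60 in controls (SD, n = 3 each), a difference of 1.7 on the log2 scale, or 3.24-fold. All 3 knockouts lay above all 3 controls, and a 2-sided exact permutation test gave p = 0.1, below which a design of 3 against 3 cannot go. This ratio was chosen with Lonp1 known to differ. The other 8 members summed to 159, 129 and 123 CPM in knockouts, against 96.8, 63.9 and 100.3 CPM in controls, without overlap, and Afg3l2 held the most counts among them.

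**Figure D4:**
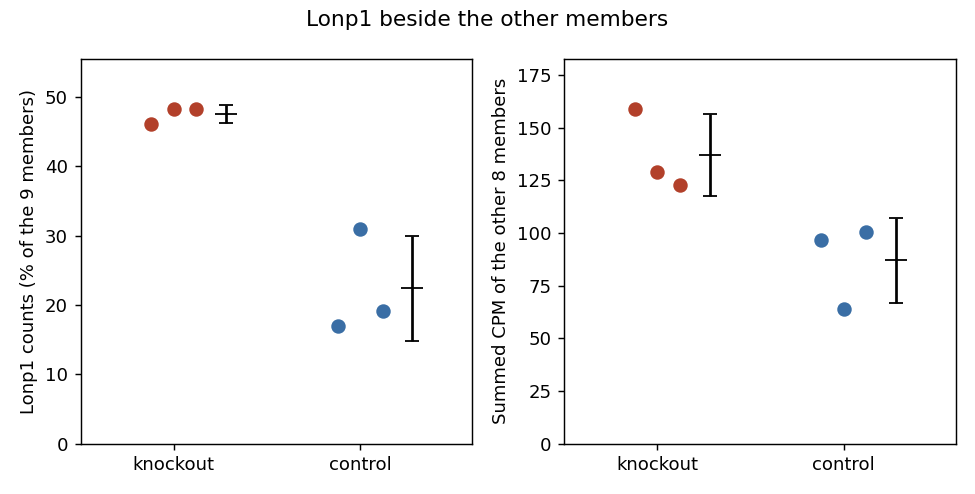
Lonp1 counts as a percentage of the counts of the 9 members (left) and the summed CPM of the other 8 members (right), by library, with knockouts left of controls and the mean ± SD (n = 3) beside the points. The mean share is 47.6% in knockouts and 22.4% in controls.

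By likeness over the 6 libraries (Pearson r of log2 CPM, among 1156 named nuclear genes of at least median level), the genes closest to Lonp1 were Ipo7 (r = 0.9969), Ctsl (0.996), Eef2 (0.9946), Ppp2ca (0.9946) and Tenm4 (0.9929). They encode a nuclear import receptor, the lysosomal protease cathepsin L, the cytosolic elongation factor 2, a catalytic subunit of protein phosphatase 2A and a teneurin. An r above 0.9 was found for 94 of the 1156 genes. With 2 groups of 3 libraries, such an r mostly follows the step between the groups, whatever its size. The fitted log2 fold changes of these genes run from 0.31 for Ppp2ca to 1.95 for Ctsl, apart from Tenm4, which had a mean of 53.8 CPM in knockouts and 1.07 CPM in controls.

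The related lists below were chosen with earlier results of these data known, and a gene low in controls, such as Hspe1, Atad3a or Atf5, could be tested only through its knockout counts, so tallies of tested genes lean towards higher ones. The chaperones of the matrix, which fold and refold imported proteins, were higher in 4 of 6 tested genes and lower in 0, of 9 listed. Their median log2 fold change was 1.04, against -0.02 over all tested genes, of which 8.57% were called higher. Of the 2 tested chaperones not called, Trap1 differed by -0.46 ± 0.30 and Grpel1 by 0.90 ± 0.47 (log2, SE; edgeR adjusted p = 0.317 and 0.189). Hspa9, the mitochondrial Hsp70, averaged 293 ± 30.5 CPM in knockouts and 128 ± 9.11 CPM in controls (SD, n = 3 each), 2.27-fold higher (edgeR adjusted p = 3.45e-10). Hspd1, the chaperonin Hsp60, rose 2.55-fold (edgeR adjusted p = 1.56e-07). Hspe1, its co-chaperonin, had 15, 21 and 22 counts in knockouts and 0, 4 and 1 in controls (edgeR adjusted p = 2.12e-05), and its fitted log2 change of 2.89 became 4.39 without control 2. Dnaja3, an Hsp40 partner of HSPA9, rose 1.80-fold (edgeR adjusted p = 0.0391), a call lost in 7 of 14 alternatives, among them without control 1 (0.0799), control 2 (0.224) or knockout 1 (0.136).

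Scaffolds and partners of the inner membrane proteases were higher in 2 of 5 tested genes and lower in 0, of 10 listed, with a median of 0.63. Chchd10, a small protein of the intermembrane space, averaged 129.6 ± 7.75 CPM in knockouts and 56.8 ± 5.47 CPM in controls (SD, n = 3 each), 2.28-fold higher (edgeR adjusted p = 7.06e-08). Atad3a, an AAA+ ATPase of the inner membrane, rose 2.17-fold (1.12 ± 0.40 in log2 units, SE; edgeR adjusted p = 0.0449), and its call held in 3 of 12 alternatives. It was lost without control 1 (0.223), control 2 (0.0807), control 3 (0.0750) or knockout 1 (0.0545). Phb2, a prohibitin that scaffolds the m-AAA protease, differed by 0.63 ± 0.30 (log2, SE) and did not pass (edgeR adjusted p = 0.141).

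Of 17 known substrates of the 9 members, 7 were tested, 0 were higher and 1 was lower, with a median log2 fold change of 0.01. Opa1, the fusion factor cut by YME1L1 and OMA1, differed by 0.01 ± 0.22 (log2, SE; edgeR adjusted p = 0.984). Pink1, which encodes a mitophagy kinase, fell to 29.2 ± 5.69 CPM in knockouts, against 84.2 ± 17.2 CPM in controls (SD, n = 3 each), a log2 change of -1.49 ± 0.22 (SE; edgeR adjusted p = 5.68e-08). Other mitochondrial proteases were tested in 2 of 13 listed genes, Pmpca and Pmpcb, the subunits of the processing peptidase that removes presequences, and 0 were called. Pmpca differed by 0.90 ± 0.35 (log2, SE; edgeR adjusted p = 0.0656) and Pmpcb by 0.66 ± 0.32 (edgeR adjusted p = 0.162). Of 7 transcription factors of the mitochondrial stress response, 2 were tested and 1 was higher: Atf5 averaged 36.9 ± 7.81 CPM in knockouts and 12.6 ± 5.35 CPM in controls (SD, n = 3 each), 2.93-fold higher (edgeR adjusted p = 2.64e-04).

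**Figure D5:**
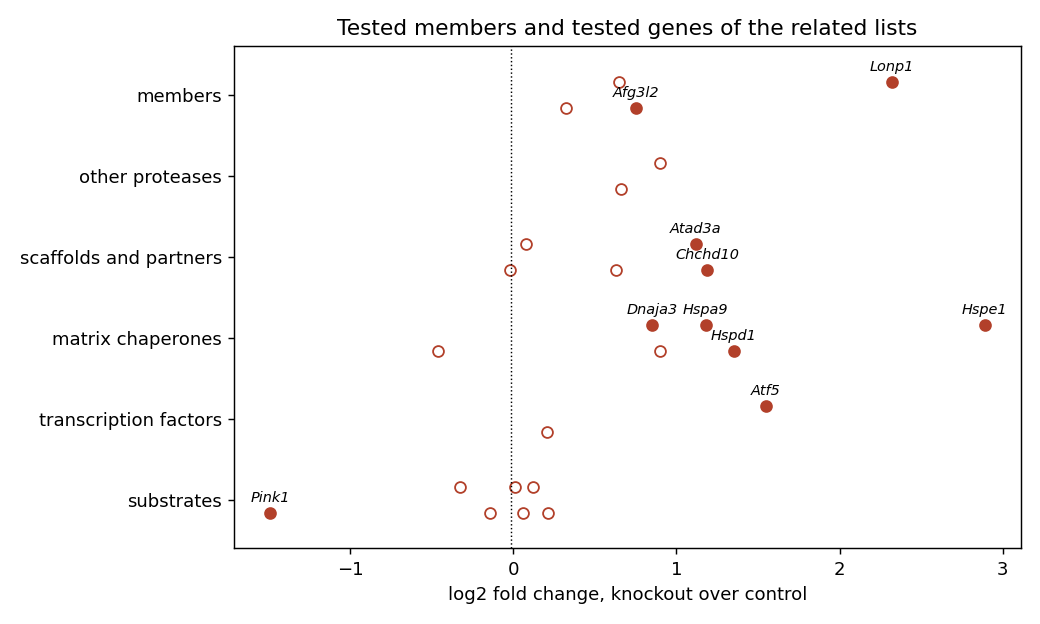
Log2 fold change, knockout over control, of each tested gene (1 point each), with the 4 tested members on top and the related lists beneath. Filled points passed the edgeR test and are named, open points did not, and the dotted line is the median of all tested genes (-0.02).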

How the data were processed

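RNA of crude heart mitochondria from Polrmt knockout and control mice, 3 libraries each, was sequenced as paired-end TruSeq libraries on a MiSeq, per the labels' protocols. Each library is taken as 1 mouse, though nothing in the labels says so. The p-values measure the spread between these libraries. The authors deposited raw counts per gene, 1 file per library. HISAT 0.1.6, featureCounts 1.3.5-p4, R 3.2.0, edgeR 3.11.2 and the build GRCm38 are named in the submitters' processing notes, with annotation release, strand setting and treatment of multiple alignments not given in the sources used here. For 6319 genes, 7 members among them, the authors' deposited table holds log2 fold changes and log2 CPM. It also holds a likelihood ratio, which is a score, and the p-value and false discovery rate that the authors derived. The direction of its fold changes is not labelled, and it was read as knockout over control from their sign at mtDNA genes. Deposited normalised values were not used, since their method is not given.

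The raw counts were fitted here with edgeR 4.0.16 (R 4.3.3, quasi-likelihood, robust, no covariate). The library size was the nuclear count, with TMM over nuclear genes kept by filterByExpr (at least 10 counts, and 15 in total). All 2369 genes that passed, 18 of mtDNA included, were tested and adjusted together. SE is the one implied by the F statistic, and 95% intervals are 1.96 SE to each side. Scaled ratios divide summed counts by effective library size. Poisson intervals and bounds (3 counts over a group) reflect counting error alone, since reads are not known to be independent molecules. Symbols and positions came from GENCODE M21 (GRCm38) and promoters from RefSeq (GRCm38.p6).

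The members and lists were chosen with earlier results of these data known. Named were the 9 members, up to 4 called genes of each list and 5 genes most like Lonp1. Other genes with values were named after these were seen. Alternatives were RLE factors, no scaling, total library sizes, leaving out the ribosomal RNA loci, no filter, DESeq2 1.42.0, a replicate block, each replicate left out and, chosen after seeing the data, a minimum count of 5. With total library sizes TMM was kept, over all genes that passed the filter. With no scaling the library size was still the nuclear count.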

Additional observations from a re-analysis of the deposited data

How the results depend on the processing

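The call of Lonp1 and its direction relative to the other 8 members were kept under every alternative run. The log2 ratio of Spg7, which was never called, was -0.17 with all libraries, 0.46 without control 3 and 0.02 without knockout 2. With all libraries 388 genes were called, 52.3% of them higher, and 2 members. DESeq2 called 166 genes, a lower count whose cause was not tested. Without scaling beyond the nuclear library size 41.8% of calls were higher and the median log2 fold change of tested genes was -0.11. Leaving out 1 library gave 278 to 362 calls. Members called numbered 1 (Lonp1) without scaling, with no low-count filter and with DESeq2, and between 1 and 3 with 1 library left out. With total library sizes the count was 2, with Clpb in place of Afg3l2, and with a minimum count of 5 it was 3. The difference in the log2 ratio of Lonp1 to the other members lay between 1.47 and 2.04 with 1 library left out and was 1.74 without Htra2. Replicate numbers are shared between the groups, and deviations of same-numbered libraries had an r of 0.00254, 0.0182 and 0.0644 over 2369 genes. Many of these genes had few counts, where counting error can hide a shared deviation, so such an r does not exclude a pairing. With the replicate block 387 genes and 2 members were called, and the log2 ratio differed by 1.7 (sign flips of 3 pairs, exact p = 0.25, the smallest they allow). Groups of 3 are too small for a test of single outlying values. Depth limits Clpp, Oma1 and Htra2, with at most 8 counts in any library.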

Other observations

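Several related genes with too few counts for the test, named here after their values were seen, also had more counts in knockouts. Afg3l1, the further m-AAA subunit of mice, had 11, 18 and 13 counts in knockouts and 1, 6 and 7 in controls, or 2.02 times as much after scaling (95% Poisson interval 1.08 to 4.00). Grpel2, a nucleotide exchange factor of mitochondrial Hsp70, had 9, 5 and 14 counts in knockouts and 4, 2 and 0 in controls (ratio 3.14, interval 1.28 to 9.27). Atf4, a transcription factor of the stress response, had 30, 12 and 25 counts in knockouts and 3, 3 and 5 in controls (ratio 4.10, interval 2.15 to 8.60). The other untested factors of its list lay on both sides of 1, with intervals that included 1. Ddit3 had a ratio of 3.03 (interval 0.997 to 12.3) and Hsf1 1.75 (interval 0.585 to 6.27). Cebpb had 0.577 (interval 0.16 to 2) and Nrf1 0.505 (interval 0.0739 to 2.98). Among other proteases the intervals included 1 for Parl, the rhomboid protease of the inner membrane (1.72, interval 0.766 to 4.22), Pitrm1, a presequence-degrading peptidase (0.871, interval 0.441 to 1.75), and Mipep, a processing peptidase of the matrix (0.633, interval 0.299 to 1.33).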
